A study of Mus musculus with 2 samples.

Results

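The report describes 8 genes, Acat2, Hmgcs1, Idi1, Fdps, Fdft1, Sqle, Lss and Insig1, chosen as a fixed list of genes of cholesterol synthesis out of 24393 genes counted in both deposited tables. All 8 were present in both tables. 7 of them encode enzymes of the synthesis pathway and the other, Insig1, encodes a regulator of it. None encodes a receptor or carrier for cholesterol uptake, although the working name of the list speaks of uptake, so uptake genes are given here from a separate list. The hypoxia group was ICR mice kept for 13 days in an altitude chamber at 52.93 kPa, the pressure at 5000 m, with 19.5% oxygen. The control group was ICR mice killed on arrival at Xining, so it was not kept in parallel, and time, handling and hypoxia cannot be told apart. All mice were 7 to 8 weeks old, and bone marrow of both groups had its lineage-positive cells removed by bead depletion before capture on the BD Rhapsody single-cell platform. Each group had 1 library, and the sources used here do not give the number of mice behind it. No test between the groups was therefore possible, and every interval below covers counting error only.

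Cholesterol is built from acetyl-CoA. Acat2 and Hmgcs1 make the first intermediates, Idi1 and Fdps assemble the isoprenoid farnesyl diphosphate, Fdft1 joins farnesyl units into squalene, and Sqle and Lss turn squalene into lanosterol, the first sterol. The Sqle step and several later steps consume molecular oxygen. Transcription of most of these genes is driven by SREBP2 (Srebf2), which the Insig proteins hold back in the endoplasmic reticulum when sterols are plentiful. Red cell precursors build large amounts of membrane while they divide, and are known to make cholesterol of their own.

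To show the regulatory sequence next to the expression data, RefSeq promoter windows (GRCm38.p6) were looked up by symbol, and 5 of the 8 genes matched. The stretches upstream of 3 of them are printed because their levels had contrasting patterns. Acat2 was lower in hypoxia, Hmgcs1 was low in erythroid cells, and Insig1 is the regulator. Each is read 5′ to 3′ on the strand of the gene, and bases that GENCODE vM21 places inside the gene are not shown. Capitals mark 3 motifs searched on both strands, TCACNCCAC (a sterol response element), CCAAT (the NF-Y box, ATTGG on the other strand) and ACGTG (the core of a hypoxia response element, CACGT on the other strand). The stretches lie at chr17:12960748-12960975 (minus strand), chr13:119690101-119690350 (plus strand) and chr5:28071162-28071362 (plus strand).
Acat2: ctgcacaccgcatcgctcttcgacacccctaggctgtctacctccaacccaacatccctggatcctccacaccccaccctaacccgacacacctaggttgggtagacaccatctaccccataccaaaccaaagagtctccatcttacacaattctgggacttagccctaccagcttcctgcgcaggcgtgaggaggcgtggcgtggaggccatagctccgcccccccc
Hmgcs1: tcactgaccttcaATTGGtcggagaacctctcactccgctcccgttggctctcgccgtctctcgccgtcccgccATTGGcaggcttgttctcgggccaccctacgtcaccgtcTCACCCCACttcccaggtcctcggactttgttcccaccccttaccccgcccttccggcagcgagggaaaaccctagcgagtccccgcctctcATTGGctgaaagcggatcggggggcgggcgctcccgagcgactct
Insig1: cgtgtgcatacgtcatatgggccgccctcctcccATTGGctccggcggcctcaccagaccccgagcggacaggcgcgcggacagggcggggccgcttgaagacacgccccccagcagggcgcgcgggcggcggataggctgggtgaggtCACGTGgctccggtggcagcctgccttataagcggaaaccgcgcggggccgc
Hmgcs1 held 1 sterol response element match and 3 CCAAT boxes. Insig1 held 1 CCAAT box and a palindromic CACGTG that matches ACGTG on both strands. None of the 3 motifs, as spelled here, occurred in the Acat2 stretch. Other spellings of a response element core, such as the GCGTG present in that stretch, were not searched. A further ACGTG of Insig1 lies in the bases not shown. Over the upstream 250 bases of all 32851 RefSeq windows, TCACNCCAC occurred in 1.05%, CCAAT in 33.8% and ACGTG in 16.6%. Among the 5 matched genes, TCACNCCAC occurred in 1 window, CCAAT in 4 and ACGTG in 1. A match describes letters in these windows and is not evidence of binding.

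After filtering, 6280 hypoxia and 3914 control cells remained, with median depths of 21344 and 32165 UMIs. The libraries shared 23 cell index numbers. Cells were put into gates by marker UMIs, and each gate is named for the cell type its markers are known for. 12 gates with at least 50 cells and 1000000 UMIs in both libraries are described, 8 outside the red cell lineage and 4 erythroid stages, and they held 91.4% of hypoxia and 90.9% of control cells. The stages run by falling Gata2 and rising globin UMIs: early erythroid (202 hypoxia and 219 control cells), CFU-E-stage (1900 and 1632), globin-onset (628 and 310) and globin-high (726 and 150). The other gates held between 63 and 576 hypoxia cells and between 88 and 250 control cells. Klf1, an erythroid transcription factor that had a part in the gates, was at 170 to 347 CPM in the hypoxia stages and 177 to 402 CPM in the control stages, and at 37.1 CPM or below and 40.8 CPM or below in the other gates. Within each gate the UMIs of a gene were summed and divided by the gate's total, giving CPM, the UMIs of the gene per 1000000 UMIs of the gate. In bulk sums such as these, fewer cells with the transcript and less transcript per cell cannot be told apart.

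The genes did not behave as 1 block across marrow cell types. Summed over the 4 erythroid stages, Idi1, Fdft1, Sqle, Acat2 and Lss were higher than summed over the 8 other gates in both libraries, whereas Hmgcs1 was higher outside the red cell lineage. Lss in globin-high cells was below its sum over the other gates. Such sums weight each gate by its UMIs, and the mix of gates differed between the libraries, as with 442 and 88 monocytic cells. Differences of summed levels between the libraries therefore include that mix. Single gates overlapped in level, as with Acat2 in hypoxia at 36.2 CPM in early erythroid cells and 43.9 CPM in megakaryocytes. Lss was highest in basophils, Insig1 was highest in early progenitor gates, and Fdps was at or below 2.05 CPM throughout. Between the libraries, Acat2 was lower in hypoxia in 11 of 12 gates and Fdft1 was higher in 12 of 12 (11 of 12 with TMM scaling). Hmgcs1, Sqle and Idi1 tended to ratios above 1 outside the red cell lineage and at or below 1 within it, though not under all alternatives.

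**Figure D1:**
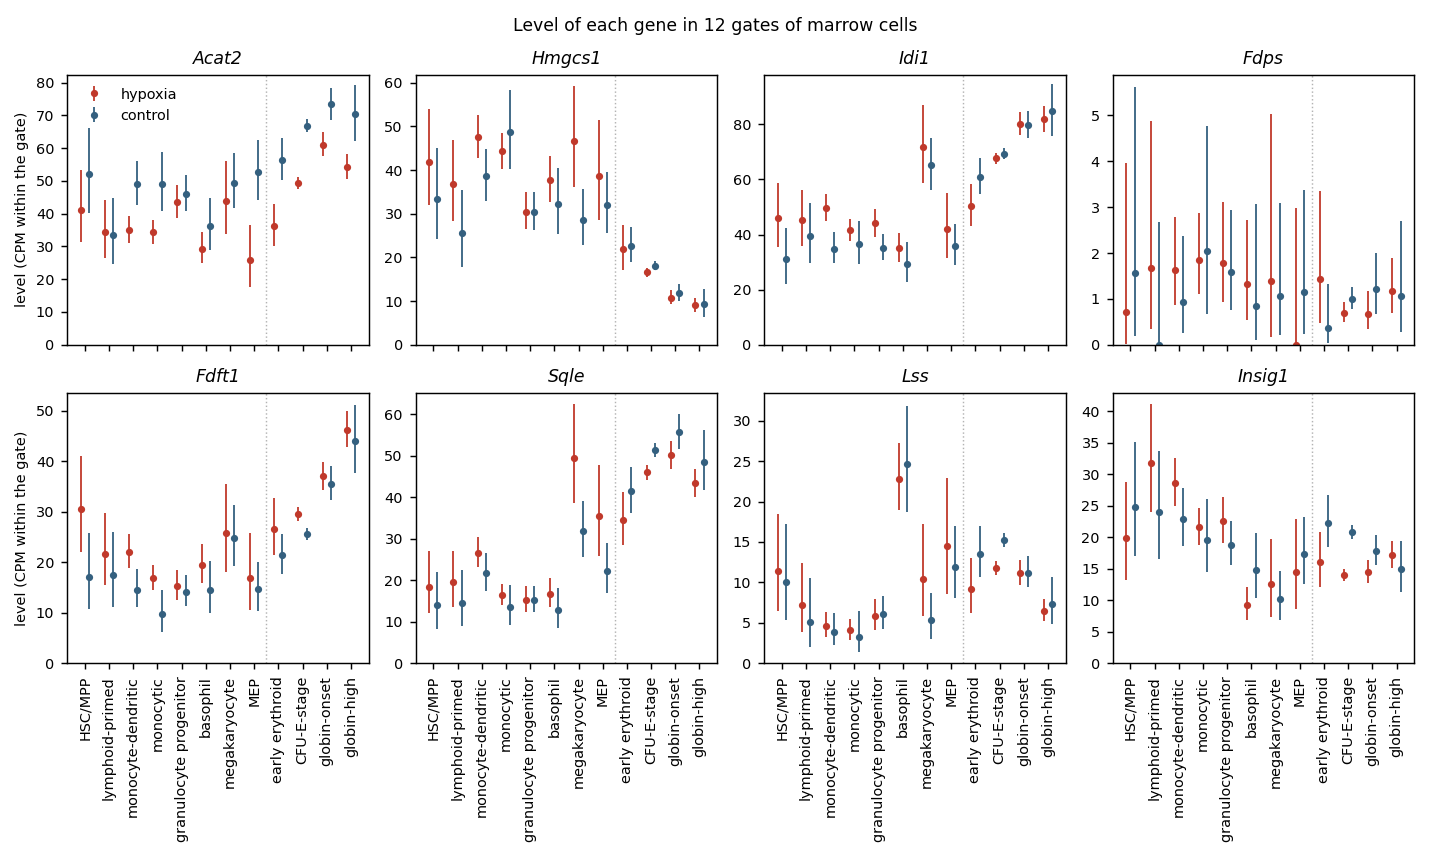
Level of each of the 8 genes in CPM (y axis, from 0, separate scale for each gene) in 12 gates (x axis), with hypoxia in red to the left of control in blue. Points are 1 library each, bars are exact Poisson 95% intervals, and the dotted line separates the 4 erythroid stages. Hmgcs1 is lowest in the globin-high gate at 8.98 CPM in hypoxia and 9.23 CPM in control, where Fdft1 is highest at 46.3 and 44.1 CPM.

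Acat2 encodes the cytosolic thiolase that joins acetyl-CoA units and lies at chr17:12942890-12960747 on the minus strand. Its level was 61.1 CPM in hypoxia and 73.4 CPM in control at globin onset, the highest of the 12 gates in both libraries. The lowest hypoxia level was 25.8 CPM in the megakaryocyte-erythroid progenitor (MEP) gate, and the lowest control level was 33.5 CPM in lymphoid-primed cells. The 4 erythroid stages together stood at 51.9 CPM in hypoxia and 67.3 CPM in control, which was 1.45 and 1.44 times the level of the other 8 gates in the same library. In order of level, neighbouring gates had overlapping intervals in hypoxia. In control, the CFU-E-stage at 66.9 CPM stood apart from the next gate, early erythroid at 56.3 CPM.

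Hmgcs1, at chr13:119690379-119708260 on the plus strand, encodes the synthase that makes HMG-CoA, and its pattern was the reverse. The erythroid stages together had 14.5 CPM in hypoxia and 17.1 CPM in control, against 40.9 and 33.8 CPM in the other gates. The highest levels were 47.5 CPM in the monocyte-dendritic gate of hypoxia and 48.7 CPM in the monocytic gate of control. Its level also declined stage by stage. It was 21.8, 16.6, 10.8 and 8.98 CPM from early erythroid to globin-high in hypoxia, and 22.7, 18.1, 11.8 and 9.23 CPM in control. The globin-high level was 0.41 times the early erythroid level in both libraries (95% counting interval 0.31 to 0.55 in hypoxia and 0.27 to 0.60 in control). Only the step from CFU-E-stage to globin onset had intervals that did not overlap.

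Idi1, at chr13:8885501-8892451 on the plus strand, interconverts the isoprenoid building blocks. It was 50.2, 67.6, 80.1 and 81.9 CPM from early erythroid to globin-high in hypoxia, and 60.9, 69.4, 79.9 and 84.7 CPM in control. Its globin-high level was 1.63 times its early erythroid level in hypoxia (1.39 to 1.92) and 1.39 times in control (1.19 to 1.63). Outside the red cell lineage the megakaryocyte gate was highest, with 71.7 CPM in hypoxia and 65.1 CPM in control, and the remaining gates lay between 35.0 and 49.5 CPM in hypoxia and between 29.3 and 39.3 CPM in control. Early erythroid cells of the control stood apart from the gate below them in that order, whereas those of hypoxia did not. The processed pseudogene Gm13502 matches 684 bases of the 3027-base Idi1 transcript at 100% identity, and Gm35570 matches 681 bases at 97.7%. Neither is among the genes counted, and the sources used here do not say how reads that fit several copies were counted.

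Fdps, at chr3:89093588-89101959 on the minus strand, makes farnesyl diphosphate. It had only 138 UMIs in all hypoxia cells and 123 in all control cells, which was 1.04 and 1.03 CPM. By gate it ranged up to 1.84 CPM in hypoxia and 2.05 CPM in control. No UMI was seen in 1239003 UMIs of the hypoxia MEP gate or in 1374062 UMIs of the control lymphoid-primed gate, which allows up to 2.42 and 2.18 CPM by a floor of 3 counts. The processed pseudogene Gm3571 matches 1062 bases of its 1382-base vM21 transcript at 98.9% identity, and 3 further pseudogenes match at 96.1% to 96.7%. The overlapping gene Gm43738 on the same strand shares 929 bases at 100% identity. None of these 5 genes has a column in the tables. The sources used here do not say how reads that fit several of these copies were counted, so the Fdps level is uncertain.

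Fdft1, at chr14:63145150-63179578 on the minus strand, encodes squalene synthase. It was 26.7, 29.6, 37.0 and 46.3 CPM along the erythroid stages in hypoxia and 21.4, 25.5, 35.6 and 44.1 CPM in control. The globin-high level was 1.73 times the early erythroid level in hypoxia (1.39 to 2.18) and 2.06 times in control (1.62 to 2.63). The lowest gates were granulocyte progenitors in hypoxia at 15.3 CPM and monocytic cells in control at 9.82 CPM. Globin-high cells of hypoxia stood apart from all other gates, and in control globin-high and globin-onset cells overlapped each other and stood above the rest. The processed pseudogene Gm6781, which is not among the genes counted, matches 1249 bases of the 3698-base Fdft1 transcript at 97.4% identity.

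Sqle, at chr15:59315077-59331192 on the plus strand, encodes squalene epoxidase, and of the 8 genes it had the highest ratio of erythroid to other levels in both libraries. The erythroid stages had 45.9 CPM in hypoxia and 51.3 CPM in control, against 20.7 and 18.7 CPM in the other gates. These were ratios of 2.22 (2.06 to 2.40) and 2.75 (2.49 to 3.04). The mix of gates in the sums differed between the libraries, so these ratios are not set against each other. Along the stages it was 34.5, 46.0, 50.1 and 43.4 CPM in hypoxia and 41.5, 51.4, 55.8 and 48.5 CPM in control, so both libraries peaked at globin onset. Megakaryocytes of hypoxia, at 49.4 CPM, overlapped the erythroid stages in level, and those of control, at 31.8 CPM, came after all 4 of them. Lss, at chr10:76531588-76557138 on the plus strand, encodes lanosterol synthase and was highest in basophils, at 22.8 CPM in hypoxia and 24.6 CPM in control. The CFU-E-stage had 11.8 and 15.2 CPM, and monocytic cells had the lowest levels at 4.07 and 3.27 CPM. The basophil gate stood apart from the next gate in control, and in hypoxia its interval overlapped that of the MEP gate at 14.5 CPM.

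Insig1, at chr5:28071363-28078662 on the plus strand encodes the anchor that holds the SREBP escort protein back. In hypoxia it was highest in lymphoid-primed cells at 31.8 CPM and monocyte-dendritic cells at 28.6 CPM, and lowest in basophils at 9.22 CPM. In control the HSC/MPP gate (blood stem cells and multipotent progenitors) was highest at 24.9 CPM and megakaryocytes were lowest at 10.3 CPM, and all neighbouring gates overlapped in both libraries. Along the erythroid stages it was 16.1, 14.0, 14.5 and 17.1 CPM in hypoxia and 22.3, 20.8, 17.9 and 15.0 CPM in control. The globin-high level was 1.07 times the early erythroid level in hypoxia (0.79 to 1.45) and 0.67 times in control (0.48 to 0.93).

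**Figure D2:**
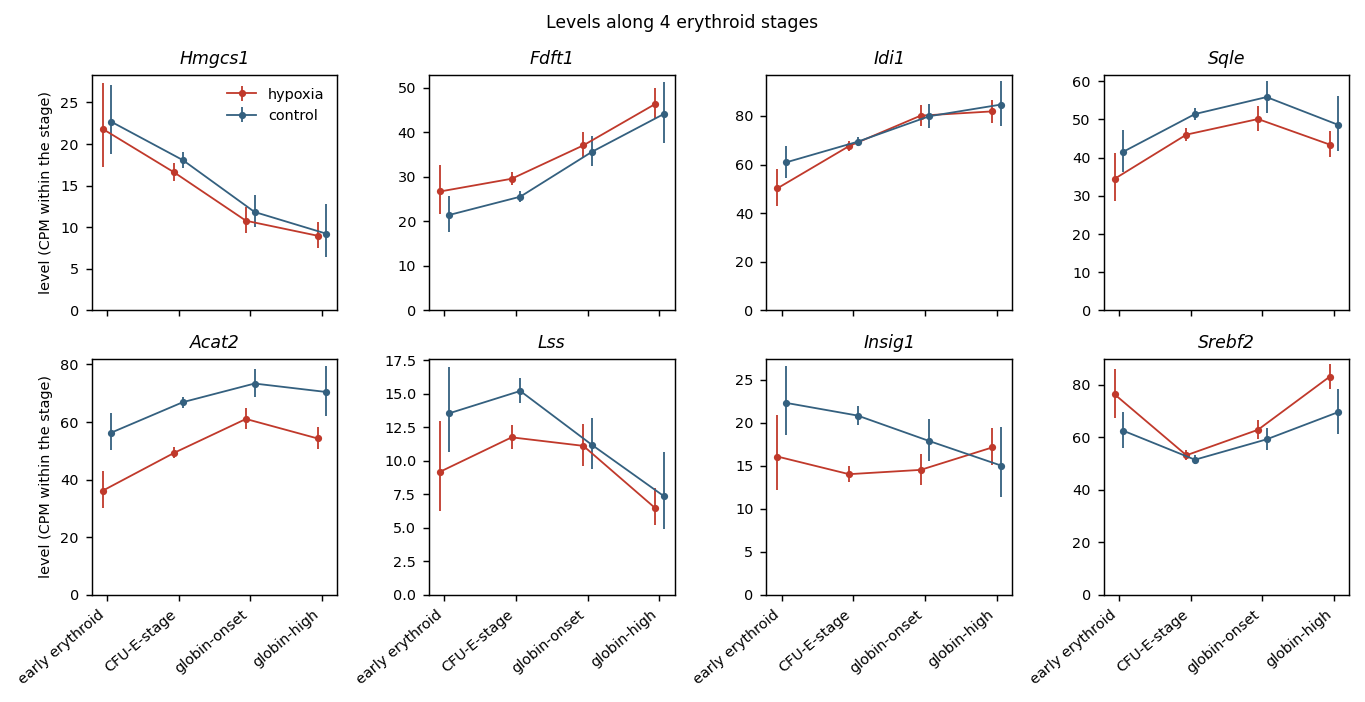
Levels in CPM (y axes, from 0, separate scale for each gene) along the 4 erythroid stages (x axis) for 7 of the 8 genes (Fdps is left out for its low UMIs) and for the regulator Srebf2. Hypoxia is red and control blue, each point is 1 library, and bars are exact Poisson 95% intervals. Hmgcs1 declines and Fdft1 climbs along the stages in both libraries, and Acat2 in hypoxia is below that in control at every stage.

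To compare the libraries, a gene was called higher or lower in a gate when the ratio of hypoxia to control CPM was at least 1.5 in either direction and the gate held at least 50 UMIs of the gene over both libraries. Few of the 8 genes passed. In the HSC/MPP gate 1 of the 5 with enough UMIs was higher (Fdft1) and 0 were lower, against 7.08% and 6.37% of all genes with enough UMIs there. In lymphoid-primed cells 0 of 6 were higher and 0 lower, against 8.00% and 5.39% of all genes. In monocyte-dendritic cells 1 of 7 was higher (Fdft1) and 0 lower, against 10% and 5.56%.

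The myeloid and megakaryocyte gates also had few calls. In monocytic cells 1 of 7 was higher (Fdft1) and 0 lower, against 8.31% and 6.45% of all genes. In granulocyte progenitors 0 of 7 were higher and 0 lower, against 5.52% and 4.06%. In basophils 0 of 7 were higher and 1 was lower (Insig1), against 8.11% and 7.01%. The megakaryocyte gate had the most calls upward. There 2 of 5 were higher (Hmgcs1 and Sqle) and 0 lower, against 7.62% and 6.53% of all genes. In MEP cells 1 of 6 was higher (Sqle) and 1 lower (Acat2), against 7.81% and 7.38%.

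In the erythroid stages 1 pair passed the limit. In early erythroid cells 0 of 7 were higher and 1 was lower (Acat2), against 13.5% and 7.50% of all genes. In the CFU-E-stage 0 of 8 were higher and 0 lower, against 15.0% and 5.84%. At globin onset 0 of 7 were higher and 0 lower, against 11.9% and 4.61%, and in globin-high cells 0 of 7 were higher and 0 lower, against 12.9% and 6.62%. Summed over gates, 6 of 50 gene and gate pairs outside the red cell lineage were higher and 2 lower, and 0 of 29 erythroid pairs were higher and 1 lower. With TMM scaling in place of the gate totals, 4 erythroid pairs were lower in place of 1. The shares outside the red cell lineage are near those of all genes, so the counts there say nothing particular to these genes. The median log2 ratio of the list (10 CPM added to each side) was between 0.01 and 0.26 in the 8 other gates and between -0.24 and -0.04 in the 4 erythroid stages.

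**Figure D3:**
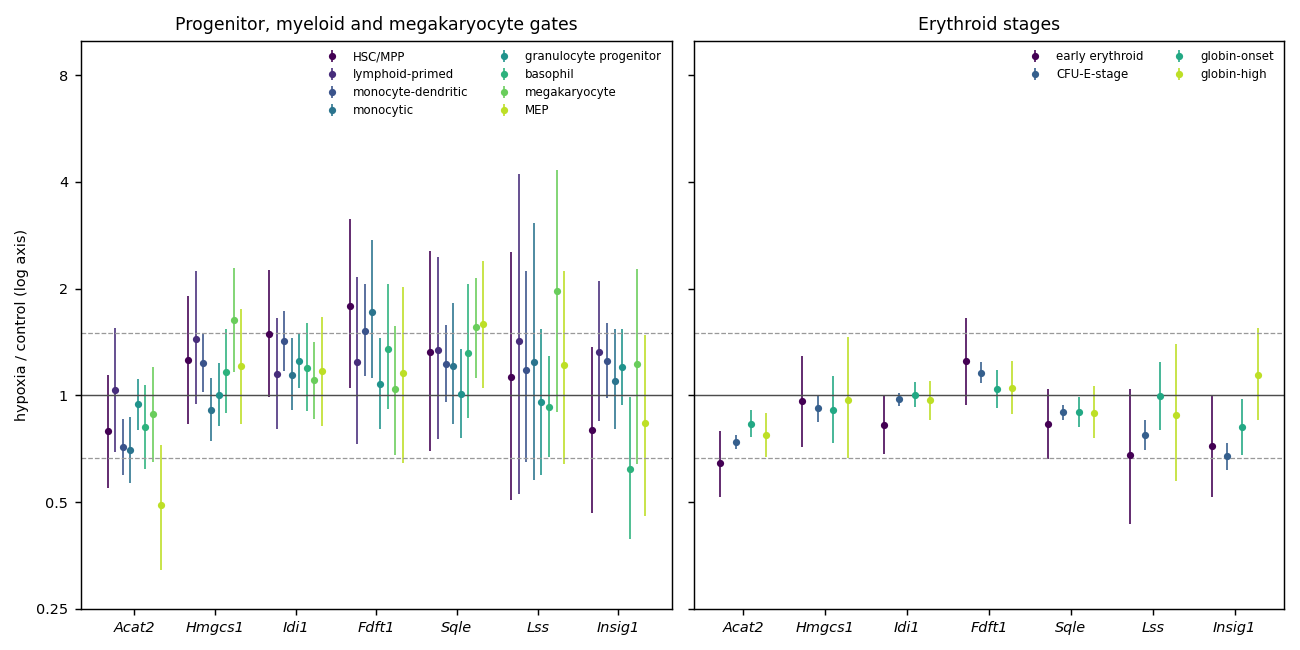
Ratio of hypoxia to control CPM (y axis, log scale) for 7 of the 8 genes (x axis; Fdps is left out for its low UMIs) in the 8 other gates (left) and the 4 erythroid stages (right). Points are ratios of 1 library to 1 library, bars are exact 95% counting intervals, and dashed lines mark 1.5-fold in each direction. Acat2 lies below 1 in all 4 erythroid stages, between 0.64 and 0.83, and Fdft1 lies above 1 in all gates, though with TMM scaling its globin-onset ratio was 0.994.

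Acat2 was lower in hypoxia in 11 of 12 gates. The CFU-E-stage had 49.3 CPM in hypoxia and 66.9 CPM in control, a ratio of 0.74 (0.70 to 0.77). Early erythroid cells had 36.2 and 56.3 CPM, a ratio of 0.64 (0.52 to 0.79), and globin-onset cells had 61.1 and 73.4 CPM, a ratio of 0.83 (0.76 to 0.91). All 4 erythroid intervals lay below 1. After thinning to 5000 UMIs per cell the early erythroid ratio was 0.72, short of the 1.5-fold limit. In globin-high cells it had 54.3 and 70.4 CPM. Outside the red cell lineage the MEP gate had 25.8 CPM in hypoxia and 52.8 CPM in control, a ratio of 0.49 (0.32 to 0.72), and the monocytic and monocyte-dendritic ratios were 0.70 and 0.71. The exception was lymphoid-primed cells, with 34.5 and 33.5 CPM. Acat3, a near-identical paralog, matches 1477 bases of the 2250-base Acat2 transcript at 97.7% identity, and its level was higher in hypoxia in the CFU-E-stage, with 3.03 CPM against 1.97 CPM in control. Tcp1 matches 445 of these bases at 98.7% identity on the other strand, and had ratios of 0.85 to 1.15 over the 12 gates. The part of either gene in the Acat2 result was not tested.

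Fdft1 had ratios above 1 in all 12 gates, and 4 of the intervals lay above 1, while with TMM scaling the globin-onset ratio was 0.994. The mean of per-cell CPM gave 0.90 in globin-high cells and 0.95 in basophils, and leaving out 1 top cell per library gave 0.98 in megakaryocytes. Thinning to 5000 UMIs gave 0.62 in megakaryocytes and 0.76 in globin-high cells. It was 30.5 CPM in hypoxia and 17.1 CPM in control in the HSC/MPP gate (ratio 1.79, 1.05 to 3.14), 22.1 and 14.5 CPM in monocyte-dendritic cells (1.52, 1.13 to 2.06) and 16.9 and 9.82 CPM in monocytic cells (1.72, 1.12 to 2.75). All 3 ratios fell short of 1.5 under some alternatives. Marker score assignment gave 1.39 in the HSC/MPP gate and 1.24 in monocytic cells, and thinning gave 1.02 in monocyte-dendritic cells. In the CFU-E-stage the ratio was nearer to 1, 29.6 and 25.5 CPM (1.16, 1.08 to 1.24). The last 774 bases of the Fdft1 transcript overlap Ctsb, a lysosomal protease gene on the opposite strand, and the sources used here do not say whether counting used strand. Ctsb was also higher in hypoxia in 12 of 12 gates, with ratios of 1.20 to 1.81, and its part in the Fdft1 result was not tested.

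Hmgcs1, Idi1 and Sqle were higher in hypoxia in several gates outside the red cell lineage. Hmgcs1 had 47.5 CPM in hypoxia and 38.5 CPM in control in monocyte-dendritic cells (ratio 1.23, 1.02 to 1.49) and 46.7 and 28.6 CPM in megakaryocytes (1.63, 1.16 to 2.28). Idi1 had 49.5 and 34.9 CPM in monocyte-dendritic cells (1.42, 1.17 to 1.72) and 44.1 and 35.3 CPM in granulocyte progenitors (1.25, 1.05 to 1.49). Sqle had 49.4 and 31.8 CPM in megakaryocytes (1.55, 1.12 to 2.14) and 35.5 and 22.4 CPM in MEP cells (1.59, 1.05 to 2.39). The ratios of Sqle and Idi1 were above 1 in 8 of the 8 other gates and that of Hmgcs1 in 7. These directions did not hold under all alternatives. The Idi1 ratio went down to 0.52 in MEP cells, 0.87 in megakaryocytes and 0.96 in monocytic cells. That of Sqle went down to 0.75 in monocytic cells, 0.80 in granulocyte progenitors and 0.99 in lymphoid-primed cells. That of Hmgcs1 went down to 0.90 in basophils. The megakaryocyte gate is thin, with 63 hypoxia cells, and its top cell held 10.4% of the Hmgcs1 and 9.86% of the Sqle UMIs. When cells were thinned to 5000 UMIs each, the megakaryocyte ratio of Hmgcs1 was 0.77, and when cells were assigned by marker score the ratio of Sqle was 0.92 in MEP cells and 1.37 in megakaryocytes.

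In the erythroid stages the same 3 genes were level or slightly lower in hypoxia. Sqle had 46.0 CPM in hypoxia and 51.4 CPM in control in the CFU-E-stage (0.90, 0.85 to 0.94), and its ratio in all 4 stages was between 0.83 and 0.90. Hmgcs1 had 16.6 and 18.1 CPM there (0.92, 0.843 to 0.999). Idi1 had 67.6 and 69.4 CPM (0.97, 0.93 to 1.02), and only its early erythroid interval lay below 1, with 50.2 and 60.9 CPM. Over the alternatives the Hmgcs1 ratio went up to 1.44 at globin onset, 1.33 in globin-high cells and 1.12 in early erythroid cells. That of Idi1 went up to 1.11 in globin-high cells, whereas that of Sqle stayed below 1 in all 4 stages. Lss had 11.8 and 15.2 CPM in the CFU-E-stage (0.77, 0.70 to 0.85), and at globin onset it had 11.1 and 11.2 CPM.

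Insig1 was lower in hypoxia in the first 3 erythroid stages. The CFU-E-stage had 14.0 CPM in hypoxia and 20.8 CPM in control, a ratio of 0.67 (0.62 to 0.73) that lay just inside the 1.5-fold limit. Early erythroid cells had 16.1 and 22.3 CPM (0.72, 0.515 to 0.997) and globin-onset cells 14.5 and 17.9 CPM (0.81, 0.68 to 0.98), whereas globin-high cells had 17.1 and 15.0 CPM (1.14, 0.85 to 1.55). In basophils it was 9.22 CPM in hypoxia and 14.9 CPM in control (0.62, 0.39 to 0.99), from 49 and 35 UMIs, and thinning to 5000 UMIs per cell gave a basophil ratio of 0.97. In lymphoid-primed, monocyte-dendritic and granulocyte progenitor gates its ratio was between 1.20 and 1.32, with intervals that included 1.

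Depth differed between the libraries, so shares of cells with a UMI were compared after drawing 15000 UMIs from each erythroid cell. That left 1795 of the hypoxia and 1615 of the control CFU-E-stage cells, with 105 and 17 shallower cells left out. Acat2 was seen in 50.8% of hypoxia cells (exact 95% interval 48.4 to 53.1) and 61.4% of control cells (59.0 to 63.8). Insig1 was seen in 17.9% (16.2 to 19.8) and 26.6% (24.4 to 28.8). Fdft1 was seen in 35.2% (33.0 to 37.5) and 30.3% (28.1 to 32.6). These 3 kept the direction of their CPM. Without thinning, the shares were 71.8% and 90.0% for Acat2, 30.1% and 54.0% for Insig1 and 54.2% and 62.3% for Fdft1, so the Fdft1 share turned round. Median depth before thinning was 29831 UMIs in hypoxia and 42847 UMIs in control. No gate was taken to lack these transcripts, so no background share from free RNA could be set.

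Within a stage, cells that had more of 1 gene hardly had more of another. Over the 21 pairs of 7 genes (Fdps left out) in thinned CFU-E-stage cells, Pearson's r had a median of 0.009 in hypoxia and 0.006 in control, with highest values of 0.071 and 0.113. Mean counts of 0.165 UMIs (Lss) to 1.03 UMIs (Idi1) per thinned cell in hypoxia, and 0.226 to 1.08 UMIs in control for the same genes, limit such values. The variance of UMIs over their mean was between 1.02 and 1.24 for these 7 genes in hypoxia and between 1.02 and 1.20 in control, close to the 1 that counting alone gives.

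Over 24 points (12 gates in each of 2 libraries), Sqle and Idi1 were the most alike of the 8, with Pearson's r of 0.908. Hmgcs1 ran against Fdft1 (-0.755) and Idi1 (-0.718). Levels here are log2 CPM with 10 CPM added. Points of 1 library share its depth and handling, so these are descriptions. The mean of the 8 was most like Sqle (0.906), Idi1 (0.880), Fdft1 (0.796) and Acat2 (0.612). It was little like Lss (0.223), Fdps (-0.140) and Insig1 (-0.153) and ran against Hmgcs1 (-0.557), so it does not stand for all 8. Each of the 8 is itself part of this mean, which raises its r, so these values are not comparable with those of genes outside the list. The genes outside the list whose pattern was most like the mean of the 8 were Rab35 and Nae1, each with r of 0.905, then Psmd4, Cox11, Cdyl, Slc22a23, Taf10, Timm17a, Mapre1 and Ctbp1, with r of 0.822 to 0.845, out of 6517 genes ranked.

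12 other enzymes of the pathway were taken from a separate list. Outside the red cell lineage 16 of 73 gene and gate pairs with enough UMIs were higher in hypoxia and 2 lower, against 5.52% to 10% and 4.06% to 7.38% of all genes by gate. In the erythroid stages 3 of 44 were higher and 2 lower, against 11.9% to 15.0% and 4.61% to 7.50%. Of the 16 higher pairs outside the red cell lineage, 6 were Hsd17b7. The summed level of the 12 enzymes was lower in hypoxia in 5 of the 8 other gates and in 4 of 4 erythroid stages. Hsd17b7, a sterol ketoreductase, was higher in 8 gates, with 28.9 and 13.4 CPM in monocyte-dendritic cells (2.16, 1.61 to 2.93) and 28.3 and 18.8 CPM in the CFU-E-stage (1.51, 1.40 to 1.62). Cyp51 and Msmo1, which remove methyl groups from lanosterol in oxygen-consuming steps, were 31.8 and 17.8 CPM and 29.9 and 15.0 CPM in monocyte-dendritic cells, ratios of 1.79 and 1.996. In MEP cells Cyp51 was lower, with a ratio of 0.58 and an interval that included 1. Mvd, which acts before Idi1, was lower in the CFU-E-stage, with 1.75 CPM in hypoxia and 2.95 CPM in control (0.59, 0.46 to 0.76). Over the alternatives the ratio of Hsd17b7 in the CFU-E-stage went down to 1.36, that of Cyp51 in monocyte-dendritic cells down to 1.21, and that of Mvd up to 0.68.

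Of the regulators (11 genes), 1 of 44 erythroid pairs was higher and 5 were lower, and 3 of 88 other pairs were higher and 7 lower. The shares of all genes by gate were 11.9% to 15.0% higher and 4.61% to 7.50% lower in the erythroid stages, and 5.52% to 10% and 4.06% to 7.38% in the other gates. Srebf2, the transcription factor of the pathway, was above control in 12 of 12 gates, with ratios of 1.03 to 1.45 and none at 1.5. Over the alternatives its ratio went down to 0.96 at globin onset and to 0.98 in the CFU-E-stage and in MEP cells. Scap, its escort protein, was below control in 11 of 12, with 39.3 CPM in hypoxia and 44.4 CPM in control in the CFU-E-stage. The Scap ratio went up to 1.40 in globin-high cells, 1.17 in megakaryocytes, 1.15 in basophils and 1.04 in MEP cells over the alternatives. Ubxn4, a membrane protein that helps to degrade endoplasmic reticulum proteins, was lower in 10 gates, with 197 and 305 CPM in the CFU-E-stage (0.64, 0.63 to 0.66).

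**Figure D4:**
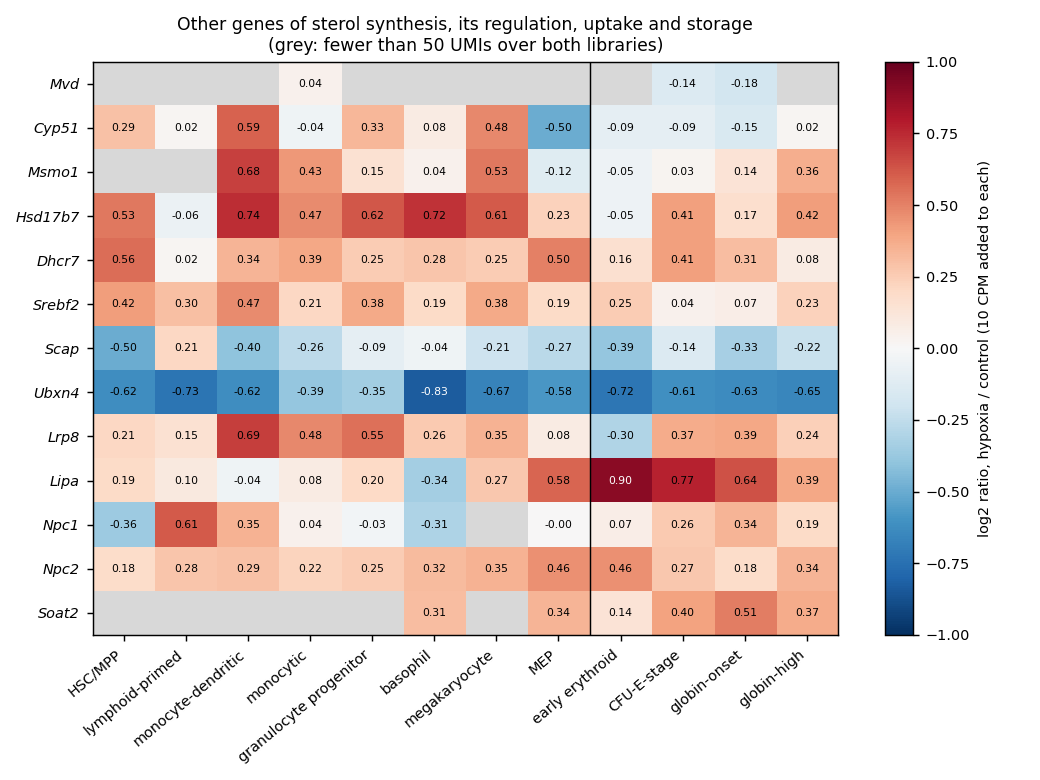
Log2 ratio of hypoxia to control, with 10 CPM added to each side (colour and printed value), for 13 genes of sterol synthesis, its regulation, uptake and storage (rows) in the 12 gates (columns). Grey cells had fewer than 50 UMIs over both libraries, and the vertical line separates the 4 erythroid stages. Lipa is higher in hypoxia in the 4 erythroid stages, and Ubxn4 is lower in every gate.

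Of the genes of uptake and lysosomal transport (13 genes), 14 of 41 erythroid pairs were higher in hypoxia and 0 lower, against 11.9% to 15.0% and 4.61% to 7.50% of all genes by stage. In the other gates 8 of 85 pairs were higher and 0 lower, against 5.52% to 10% and 4.06% to 7.38% of all genes. Lipa, the lysosomal lipase that frees cholesterol from lipoproteins, was 99.7 CPM in hypoxia and 54.4 CPM in control in the CFU-E-stage (1.83, 1.76 to 1.91) and 128 and 63.8 CPM in early erythroid cells (2.002, 1.74 to 2.31). Npc1, which carries cholesterol out of lysosomes, had 7.64 and 4.75 CPM in the CFU-E-stage (1.61, 1.39 to 1.86; down to 1.30 over the alternatives), and Npc2, its partner, was above control in 12 of 12 gates with ratios of 1.14 to 1.40. Lrp8, a lipoprotein receptor, had 15.7 and 9.84 CPM there (1.59, 1.44 to 1.76).

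Among 10 genes of efflux and esterification, 9 of 16 erythroid pairs were higher and 1 lower, and 7 of 37 other pairs were higher and 2 lower, beside shares of all genes of 11.9% to 15.0% and 4.61% to 7.50% in the erythroid stages and 5.52% to 10% and 4.06% to 7.38% in the other gates. Soat2, which stores cholesterol as esters, had 11.9 CPM in hypoxia and 6.57 CPM in control in the CFU-E-stage (1.81, 1.61 to 2.05) and 12.1 and 5.56 CPM at globin onset (2.18, 1.66 to 2.90). The exporters Abca1 and Abcg1 were higher in early erythroid cells, with 26.4 and 6.04 CPM (4.38, 2.91 to 6.73) and 23.3 and 10.6 CPM (2.19, 1.55 to 3.13). Over the alternatives the Abca1 ratio there was between 2.65 and 8.05. MEP cells had 33.1 and 18.9 CPM of Abca1 and 81.5 and 83.2 CPM of Abcg1. In early erythroid cells Cd34 was at 21.2 CPM in hypoxia and 8.41 CPM in control. Mpo was at 58.0 and 17.6 CPM in them, and Hlf at 10.3 and 11.9 CPM. Whether free RNA or stray cells gave part of the early erythroid Abca1 and Abcg1 UMIs was not tested. In monocyte-dendritic cells Abca1 was lower, with 3.63 and 6.92 CPM (0.52, 0.30 to 0.90). Soat1, the other esterifying enzyme, was lower in basophils, with 19.8 and 51.0 CPM (0.39, 0.295 to 0.508). It was higher in lymphoid-primed cells, with 47.4 and 19.6 CPM (2.41, 1.55 to 3.87). In the CFU-E-stage it was also higher, but at a low level, with 1.17 and 0.366 CPM (3.21, 2.01 to 5.26). Monocytic cells had 248.5 CPM of Soat1 in hypoxia and 209.5 CPM in control. Irf8, also high in monocytic cells, was at 6.09 CPM in hypoxia and 0.478 CPM in control in the CFU-E-stage. Whether free RNA or stray cells gave the Soat1 UMIs there was not tested. In the other branches of the mevalonate pathway (11 genes), 2 of 44 erythroid pairs were higher and 1 lower, and 4 of 80 other pairs were higher and 3 lower. Of 13 fatty acid synthesis genes, 4 of 43 erythroid pairs were higher and 5 lower, and 6 of 64 other pairs were higher and 0 lower. The same shares of all genes apply to both of these lists. Among them the desaturase Scd1 had 62.3 CPM in hypoxia and 30.9 CPM in control in globin-high cells (2.02, 1.66 to 2.47), where its relative Scd2 had 14.3 and 24.0 CPM (0.60, 0.46 to 0.77).

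Other differences between the libraries stood beside these. The summed level of 11 heat shock chaperones was 4659 to 9233 CPM over the erythroid stages of hypoxia and 11107 to 16729 CPM over those of control, and it was lower in hypoxia in 12 of 12 gates. The summed level of 14 immediate early genes was also lower in 12 of 12 gates, at 720.4 to 7883 CPM in hypoxia and 1310.1 to 10225 CPM in control outside the red cell lineage. Both lists are known to respond to cell handling, and their part in the results was not tested. Prss34, which marks basophils, was at 29.7 CPM in hypoxia and 4.23 CPM in control in the CFU-E-stage, with Mpo, a granulocyte gene, at 22.6 and 11.1 CPM. S phase genes (14) summed to 3480 and 3529 CPM and G2/M genes (14) to 3310 and 3203 CPM there. In some other gates the libraries differed more. G2/M genes summed to 1980 CPM in hypoxia and 3022 CPM in control in the HSC/MPP gate, where 7 of 14 were lower, and to 3720 and 2871 CPM in monocyte-dendritic cells and 3473 and 2726 CPM in monocytic cells. S phase genes summed to 1691 and 2160 CPM in megakaryocytes. The part of the cell cycle lists in the results was not tested.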

How the data were processed

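Lineage-depleted marrow was profiled on the BD Rhapsody whole transcriptome assay, with 1 hypoxia and 1 control library. The authors deposited UMI counts per cell and gene. Per the file headers they came from version 1.7.1 of the BD Rhapsody WTA pipeline, with GRCm38 as genome and GENCODE vM19 as annotation. The submitters' processing notes also list Bowtie2. The sources used here do not say how cells were called or whether counting used strand. The 6406 hypoxia and 3956 control cells held 137504361 and 121415081 UMIs.

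Cells needed at least 500 UMIs, 200 genes and under 20% mitochondrial UMIs, which removed 14 hypoxia and 6 control cells, and Scrublet (scanpy 1.11.5) removed 112 and 36 doublets. Gates were set on marker UMIs per 10000 UMIs of a cell, first match first. UMIs were summed per gate. Intervals are exact at 95% (Poisson for CPM, conditional binomial for ratios, Clopper-Pearson for shares) and cover counting error only. With 1 library a group no p-value was computed. The computations used Python 3.11.15, scipy 1.17.1 and, for TMM factors as an alternative, edgeR 4.0.16, and were tested on simulated data. Transcripts were matched to each other with BLAST 2.17.0 at 95% identity or more over at least 200 bases.

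The 8 genes, the pathway lists and the gate limits were chosen with earlier results of these data known. Genes of the other lists were named where they had at least 50 UMIs and a ratio of at least 1.5 in a gate, at most 4 per list and gate. Srebf2 and Scap were always described, some items are not reported here, and Npc2 was chosen after its values were seen. Alternatives changed the scaling, cell filter, gates, depth, minimum UMIs, fold limit and added CPM.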

Additional observations from a re-analysis of the deposited data

Results flagged for a closer look

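Several genes had ratios of hypoxia to control whose 95% counting intervals lay on opposite sides of 1 in different gates, and the difference between the gates was not tested. For Hmgcs1 the ratio was 1.23 in monocyte-dendritic cells and 0.918 in the CFU-E-stage. For Sqle it was 1.55 in megakaryocytes and 0.895 in the CFU-E-stage. For Idi1 it was 1.42 in monocyte-dendritic cells and 0.825 in early erythroid cells. Outside the 12 described gates, Hmgcs1 in the eosinophil gate had 26 UMIs in hypoxia and 2 in control, a ratio of 4.32 (1.08 to 37.5), from 101 and 23 cells.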

How the results depend on the processing

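Of the alternatives to summary values, 172 left the value within its limits and 22 moved it. Of those to single genes, 1686 stayed, 85 moved and 5 turned the direction of a ratio that had passed the 1.5-fold limit. Ratios short of that limit that crossed 1 are counted among those that stayed or moved. Against 6 pairs higher in hypoxia outside the red cell lineage, there were 3 with cells assigned by marker score, 10 with no minimum of UMIs and 0 at a fold of 2. Against 2 lower there, there were 1 with no cell filter and doublets kept, 4 with stricter gates, 4 with no minimum and 1 at a fold of 2. In the erythroid stages, against 0 higher, there was 1 with no minimum, and against 1 lower there were 4 with TMM factors, 2 with the mean of per-cell CPM, 0 with cells thinned to 5000 UMIs, 2 with stricter gates, 2 with no minimum and 0 at a fold of 2. The median log2 ratio of the 8 genes was -0.20 in the CFU-E-stage with 1 CPM added and -0.33 in globin-high cells after thinning. Without thinning, the ratios of the shares of CFU-E-stage cells with a UMI were 0.730 for Hmgcs1, 0.798 for Sqle, 0.869 for Idi1, 0.870 for Fdft1, 0.556 for Insig1 and 0.604 for Lss. After thinning to 5000 UMIs the ratio was 0.766 for Hmgcs1 in megakaryocytes, 1.05 for Mvk in granulocyte progenitors and 1.13 for Pdss2 in globin-high cells. By marker score it was 0.916 for Sqle in MEP cells, and the mean of per-cell CPM gave 0.848 for Cyp27a1 in monocytic cells. The cause was not tested. No paired analysis was possible because each group had 1 library. Depth limits Fdps most, with 138 UMIs in hypoxia and 123 in control.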
